A study of Mus musculus with 2 samples.

Results

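Transcripts of 5 CC chemokine genes, Ccl1, Ccl3, Ccl4, Ccl5 and Ccl9, were followed through NK cells sorted from mouse tumours. The genes were taken by name from the 53715 genes listed for both libraries, and the cells were taken as barcodes with at least 1 UMI of Ncr1, the gene of the NK receptor NKp46, which kept 7792 of 8386 barcodes of one library and 11050 of 12435 of the other, 18842 in all. The tumours grew from CT26, a mouse colon carcinoma line, here by its label b2m-/-, without the light chain of MHC class I. Tumour-bearing mice had received IL-15SA for the first library and IL-15SA+IL-21Fc, called the combination below, for the second. Both groups thus received IL-15SA. The sources used here do not give the host strain, age, sex, doses or day of collection, and no untreated library was analysed here. The sorted cells were CD45.2-positive, CD3-negative and NKp46-positive. Cells of each treatment were pooled into 1 library, so there were 2 libraries, 1 per group, with no replicate check and no test of any difference between them.

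CC chemokines are small secreted proteins that draw leukocytes along a gradient by binding G protein-coupled receptors. Ccl3 and Ccl5 bind Ccr1, a receptor of myeloid cells among others. Activated NK cells are a known source of these chemokines together with the XC chemokine Xcl1, which attracts cross-presenting dendritic cells. Ccl1 is the ligand of Ccr8, a receptor found on regulatory and type 2 T cells. Ccl9 is a Ccr1 ligand best known from myeloid cells and epithelium. IL-15 and IL-21 are cytokines that act on NK cells through the common gamma chain.

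The IL-15SA library held 7792 Ncr1-positive barcodes with 29503540 UMIs and the combination library held 11050 with 32047238. Barcodes of the IL-15SA library were deeper, with a median of 3165.5 UMIs against 2424.5. Levels are therefore given as UMIs of the gene per 1000000 UMIs of the library (CPM), and shares of barcodes with a UMI were counted after each barcode had been thinned to 1000 UMIs, which left out none. UMIs count captured molecules, so levels were not divided by gene length. The 95% intervals given with levels, ratios and shares cover counting error only. All 8 NK markers were detected in both libraries, with summed levels of 27047 and 24139 CPM. Of 8 T cell markers 8 and 7 were detected, summing to 1176 and 1194 CPM, mostly from 1 gene at 1018 and 1025 CPM. The B cell gene Ms4a1 was at 0 in both libraries. All 9 tumour or stroma markers were detected, summing to 73.7 CPM under IL-15SA and 167 CPM under the combination. Innate lymphoid cells of type 1 carry NKp46 and pass this sort, and their 4 markers summed to 84.1 and 95 CPM. The libraries shared 60 barcode sequences.

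All 5 genes lie on mouse chromosome 11 (mm10, GENCODE M21). Ccl5 (ENSMUSG00000035042, chr11:83525778-83530518), Ccl9 (ENSMUSG00000019122, chr11:83572919-83578636) and Ccl3 (ENSMUSG00000000982, chr11:83647844-83649355) are on the minus strand. Ccl4 (ENSMUSG00000018930, chr11:83662584-83664683) follows on the plus strand, with 13228 bases between it and Ccl3. These 4 genes span 138906 bases. Ccl1 (ENSMUSG00000020702, chr11:82176657-82305690, minus strand) lies apart from them. That span follows 1 long transcript, Ccl1-203, which reaches to 1220087 bases before Ccl5. The other transcripts of the gene start at base 82179812, 1345965 bases before Ccl5, and the promoter stretch of Ccl1 given next belongs to that start.

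The sequences just before the start sites are printed for Ccl1, Ccl3 and Ccl9. These are the 3 of the 5 genes for which a promoter entry was matched in the RefSeq table (GRCm38.p6). Ccl4 and Ccl5 had no entry. Each line is the 250 bases before the start site, 5′ to 3′ on the minus strand, at chr11:82179813-82180062 for Ccl1, chr11:83649379-83649628 for Ccl3 and chr11:83578637-83578886 for Ccl9. Capitals mark matches on either strand to GGGAA, the half-site of the kappaB motif, or TGANTCA, a form of the AP-1 motif.
Ccl1: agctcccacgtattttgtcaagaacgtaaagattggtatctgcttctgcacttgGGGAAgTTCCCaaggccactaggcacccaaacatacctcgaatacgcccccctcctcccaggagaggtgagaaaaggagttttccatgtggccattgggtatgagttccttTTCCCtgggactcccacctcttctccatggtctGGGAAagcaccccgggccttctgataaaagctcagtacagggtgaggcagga
Ccl3: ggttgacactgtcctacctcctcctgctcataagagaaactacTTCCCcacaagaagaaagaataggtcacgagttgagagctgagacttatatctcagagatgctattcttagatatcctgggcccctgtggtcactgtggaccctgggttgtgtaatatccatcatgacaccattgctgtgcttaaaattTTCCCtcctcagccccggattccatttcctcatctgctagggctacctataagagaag
Ccl9: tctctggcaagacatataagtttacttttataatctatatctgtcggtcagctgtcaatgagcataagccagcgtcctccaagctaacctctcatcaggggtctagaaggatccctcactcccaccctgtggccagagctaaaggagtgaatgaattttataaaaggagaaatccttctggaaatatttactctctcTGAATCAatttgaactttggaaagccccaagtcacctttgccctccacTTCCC
The Ccl1 stretch holds 4 kappaB half-sites, with 1 in the printed orientation at bases -196 to -192 from the start site facing 1 on the other strand at bases -190 to -186, a single base apart. The other two lie at bases -85 to -81 and -52 to -48. The Ccl3 stretch holds 2 half-sites, at bases -207 to -203 and -58 to -54. The Ccl9 stretch holds 1 half-site, at bases -5 to -1, and 1 AP-1 match at bases -53 to -47, which neither of the other stretches holds. The short NFAT core GGAAA, left in lower case where it stands alone, matched 3 times for Ccl1, 2 times for Ccl3 and 2 times for Ccl9, and it overlaps the half-site wherever the letters run GGGAAA. The letters were chosen after the sequences were seen, and they are common: of 32851 promoters of the same length, 56.2% hold the kappaB half-site, 6.75% the AP-1 form and 55.6% the NFAT core.

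Ccl5 was the most abundant of the 5, followed by Ccl4. It stood at 3295 CPM (95% interval 3274 to 3316) under IL-15SA and 7622 CPM (7591 to 7652) under the combination. Ccl5 was thus 2.31-fold higher (2.30 to 2.33) in the combination library, a log2 ratio of 1.21 with 1 CPM added. Over all genes at 20 CPM or more in 1 library, 1.93% (106 of 5490) were higher under the combination by 1.5-fold or more and 0.492% (27) lower by as much, and the median log2 ratio was -0.01. Ccl3 and Ccl5 were past 1.5-fold, and Ccl4 was not. When barcodes of the libraries were matched on UMIs per barcode, the Ccl5 ratio was 1.76 (1.74 to 1.77).

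Ccl3 and Ccl4, the macrophage inflammatory proteins 1-alpha and 1-beta, are made from neighbouring genes. Ccl3 stood at 212 CPM (207 to 217) under IL-15SA and 353 CPM (347 to 360) under the combination, a ratio of 1.67 (1.62 to 1.72). Ccl4 stood at 2272 CPM (2255 to 2289) and 2947 CPM (2928 to 2966), a ratio of 1.3 (1.28 to 1.31). Both were higher in the combination library, and Ccl4 by the smaller factor. With barcodes matched on UMIs the Ccl3 ratio was 1.46 (1.41 to 1.51), which is under 1.5-fold, and the Ccl4 ratio was 1.15 (1.13 to 1.16).

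Ccl1 and Ccl9 were rare. Ccl1 stood at 6.85 CPM (5.93 to 7.86) and 8.55 CPM (7.57 to 9.62), from 202 and 274 UMIs, a ratio of 1.25 (1.04 to 1.51). Ccl9 stood at 6.30 CPM (5.43 to 7.28) and 13.8 CPM (12.5 to 15.1), from 186 and 442 UMIs, a ratio of 2.19 (1.84 to 2.61). Neither gene reached 20 CPM. The Ccl1 interval spans only counting error, and its log2 ratio of 0.28 became 0.0094 after thinning and 0.11 without the 5 barcodes richest in Ccl1 in each library.

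Summed, the 5 genes took 5792 CPM under IL-15SA and 10945 CPM under the combination. Ccl5 made up 56.9% of their UMIs in the first and 69.6% in the second, while the share of Ccl4 was 39.2% and 26.9%. Ccl3 supplied 3.66% and 3.23%. The combined level was thus higher in the combination library, with more of it in Ccl5.

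**Figure D1:**
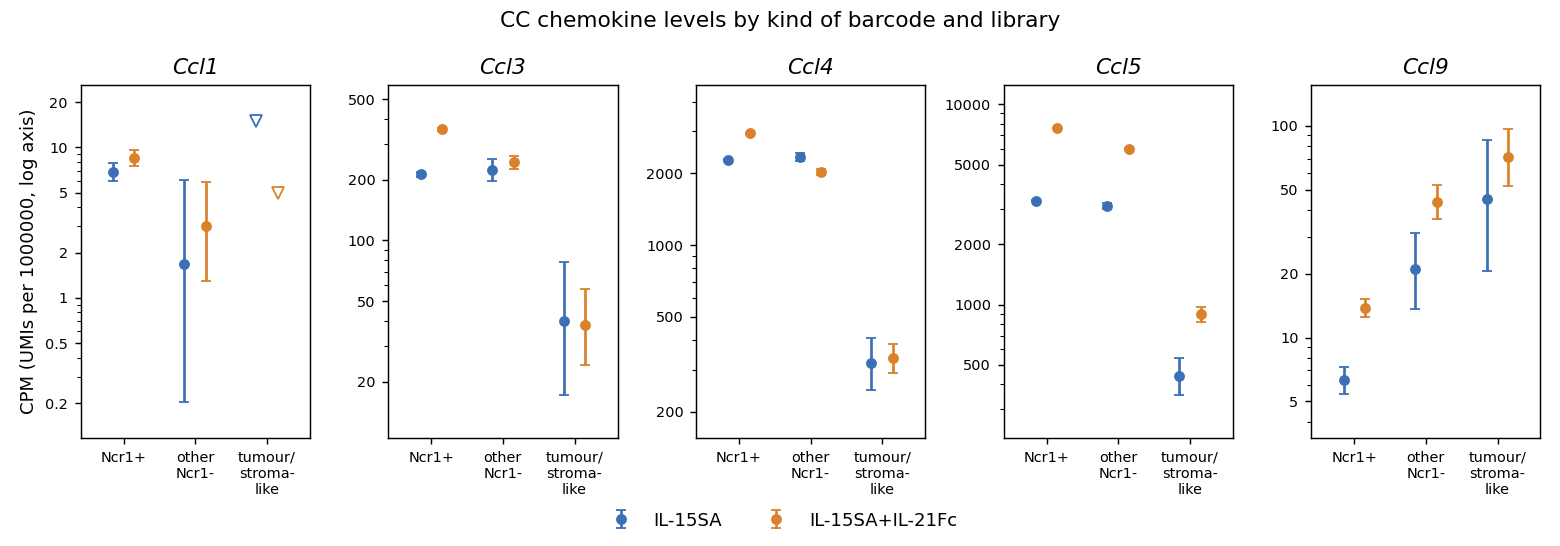
Level of each gene in CPM (log axis) in Ncr1-positive barcodes, in other Ncr1-negative barcodes and in Ncr1-negative barcodes with at least 3 tumour or stroma markers, for the IL-15SA library (blue) and the combination library (orange). Bars are exact 95% Poisson intervals and open triangles are the level that 3 counts would give where no UMI was seen; Ccl3, Ccl4 and Ccl5 are lowest in tumour or stroma-like barcodes and Ccl9 is highest there.

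Barcodes of another cell type were compared, to see how much of each transcript they held. Among Ncr1-negative barcodes, 31 in the IL-15SA library and 120 in the combination library carried at least 3 tumour or stroma markers, with medians of 6645 and 3973.5 UMIs. At 1000 UMIs per barcode, 32.3% and 58.3% of them had a Ccl5 UMI, against 67.9% and 86.9% of Ncr1-positive barcodes. For Ccl4 the shares were 29.0% and 31.7% against 62.0% and 66.9%. For Ccl3 they were 0 of 31, which allows a share of up to 9.68%, and 1.67%, against 15.9% and 22.2%. In Ncr1-positive barcodes Ccl3, Ccl4 and Ccl5 were thus above the level of tumour or stroma-like barcodes, and for Ccl4 and Ccl5 that level was not small. Whether it came from free RNA, doublets or transcription in those cells was not tested. The ratio of Ccl5 to Ccl4 UMIs in tumour or stroma-like barcodes, 1.38 (0.985 to 1.93) and 2.67 (2.27 to 3.16), was close to that of Ncr1-positive barcodes in the same library, 1.45 and 2.59.

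Ccl9 went the other way. It stood at 44.9 CPM (20.5 to 85.2) and 71.5 CPM (51.8 to 96.4) in tumour or stroma-like barcodes, and 3.23% and 6.67% of these had a Ccl9 UMI after thinning. In Ncr1-positive barcodes the shares were 0.655% and 1.19%. The Ccl9 share of Ncr1-positive barcodes is below that of the tumour or stroma-like barcodes, so it was not shown to lie above background. These barcodes are not a cell type that should lack Ccl9, and how much Ccl9 free RNA brought to Ncr1-positive barcodes was not tested. Its UMIs also did not keep the ratio to Ccl4 seen in Ncr1-positive barcodes: there were 0.0028 and 0.0047 Ccl9 UMIs per Ccl4 UMI in Ncr1-positive barcodes and 0.141 and 0.214 in tumour or stroma-like ones. The summed tumour or stroma markers of Ncr1-positive barcodes were 73.7 and 167 CPM, higher in the combination library as Ccl9 was, and their part in the Ccl9 ratio was not tested. Without barcodes holding any such marker, Ccl9 was 4.54 and 9.85 CPM and the ratio was 2.17 (1.73 to 2.72), and without cluster 6, a group of barcodes rich in tumour or stroma genes, it was 4.18 and 9.51 CPM and 2.28 (1.83 to 2.84). Both exclusions were chosen after the data were seen. They cannot remove free RNA from the barcodes that stay, and its part in the ratio was not tested.

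Ccl1 had no UMI in the tumour or stroma-like barcodes, where 3 counts would have given 15 and 4.99 CPM, so the IL-15SA library could not have shown its NK level there. The remaining Ncr1-negative barcodes, 563 and 1260, had medians of 1712 and 1653.5 UMIs, and 7 of the 8 NK markers were detected in them. Their thinned shares were near those of Ncr1-positive barcodes, 68.9% and 84.6% for Ccl5 and 61.5% and 61.0% for Ccl4. The line drawn at 1 Ncr1 UMI thus did not separate barcodes with and without these chemokines.

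**Figure D2:**
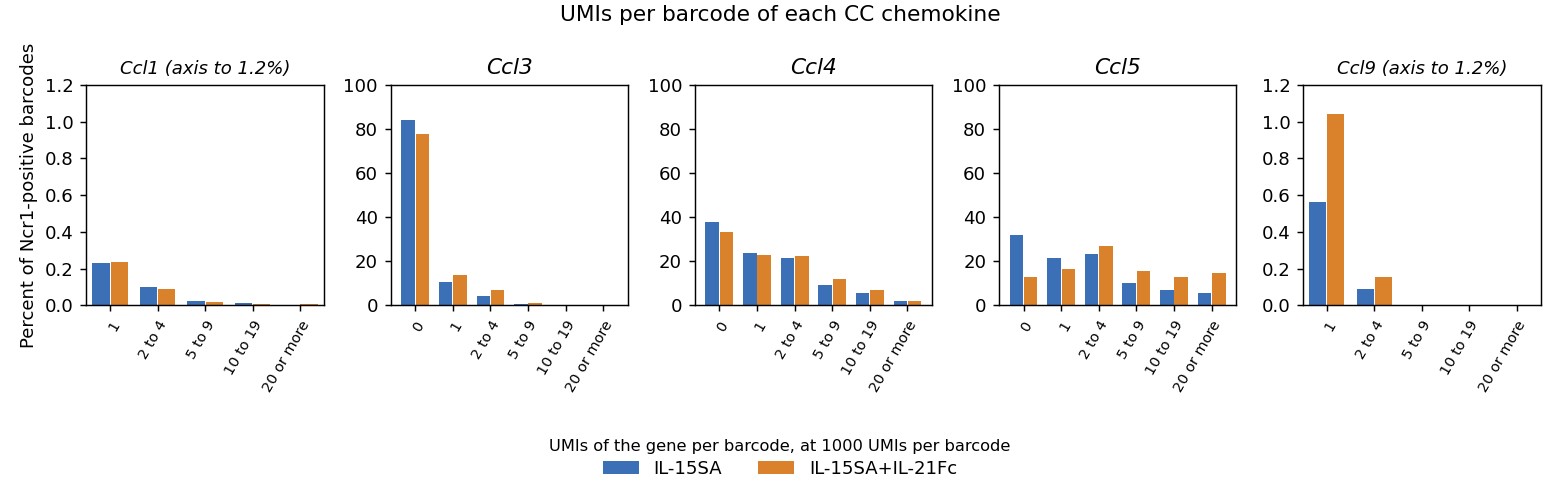
Percent of Ncr1-positive barcodes by the number of UMIs of each gene, with every barcode thinned to 1000 UMIs, for the IL-15SA library (blue) and the combination library (orange). The panels of Ccl1 and Ccl9 leave out barcodes at 0 and end at 1.2%; Ccl5 had 20 or more UMIs in 5.74% and 14.6% of barcodes.

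Within a library each of the abundant chemokines was spread unevenly over barcodes. Unthinned, the median barcode held 4 Ccl5 UMIs in the IL-15SA library, the 90th percentile 34 and the highest 302. In the combination library the median was 8, the 90th percentile 59 and the highest 550. The whole distribution of Ccl5 was shifted: after thinning, 32.1% of barcodes had no Ccl5 UMI in the IL-15SA library and 13.1% in the combination library, and 5.74% and 14.6% had 20 or more. Among tumour or stroma-like barcodes the share with a Ccl5 UMI was also higher in the combination library, 58.3% against 32.3%. The part of free RNA in the low end of the shift was not tested. The 10% of barcodes with the most Ccl5 UMIs held 55.5% of them in the IL-15SA library and 47.5% in the combination library.

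Ccl4 had a median of 3 UMIs and a 90th percentile of 23 in both libraries, with highest values of 428 and 263. Its top 10% of barcodes held 55.1% and 52.4% of its UMIs. Had the thinned UMIs been placed at random at their mean, 93.3% and 96.0% of barcodes would have had a Ccl4 UMI, against the 62.0% and 66.9% observed. Ccl4 was therefore much more uneven than counting alone would make it. The variance of thinned Ccl4 UMIs was 9.96 and 9.25 times their mean, and that of Ccl5 was 17.6 and 24.4 times.

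Ccl3 was detected in fewer barcodes. Its median was 0 in both libraries, its 90th percentile 2 and 3, and its highest values 41 and 43. The top 10% of barcodes held 68.7% and 64.5% of Ccl3 UMIs, and the variance was 2.39 and 2.72 times the mean after thinning. Unthinned, 30.4% and 36% of barcodes had a Ccl3 UMI. In barcodes with a Ccl3 UMI, the mean was 2.64 and 2.85 UMIs.

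Ccl1 showed the most uneven distribution for its level. A Ccl1 UMI was present in 66 and 77 barcodes, 0.847% and 0.697%, and after thinning in 0.372% (0.249 to 0.534) and 0.362% (0.259 to 0.493). Of those, 48 and 50 barcodes had a single UMI before thinning. The other end was a handful of rich barcodes: 6 in the IL-15SA library and 5 in the combination library held 50% or more of all Ccl1 UMIs. Ccl9, at a like level, had a variance of 1.23 and 1.29 times the mean against 4.33 and 7.30 for Ccl1, and at most 9 and 8 UMIs in a barcode. At so low a mean this ratio does not show that Ccl9 was evenly spread. Cluster 6, with 272 and 655 barcodes, held 67 of the 186 and 160 of the 442 Ccl9 UMIs.

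The barcodes with at least 5 Ccl1 UMIs were looked at one by one. There were 11 in the IL-15SA library and 9 in the combination library, and they held 67.8% and 63.5% of all Ccl1 UMIs. Each had between 1 and 16 Ncr1 UMIs. The cut was made on unthinned UMIs, and these barcodes were deeper. Their median total was 5514 and 4135 UMIs, against 3165.5 and 2424.5 for all Ncr1-positive barcodes. The richest in the IL-15SA library held 36 Ccl1 UMIs of 3713, with 62 of Xcl1, 60 of Ccl4 and 46 of Ccl5. The richest in the combination library held 60 of 3401, with 135 of Xcl1, 165 of Ccl4, 6 of Ccl5, 50 of Csf2, the granulocyte-macrophage growth factor, and 1 of Ncr1. The amounts of the other chemokines varied: the second richest of the combination library had 29 Ccl1 UMIs with 2 of Ccl4, 2 of Xcl1 and 19 of Ccl5. Summed over these barcodes, Xcl1 stood at 8601 CPM against 811 CPM in the rest under IL-15SA and at 5996 against 1260 CPM under the combination. Xcl1 UMIs per rich barcode ran from 0 to 121 with a median of 14, and from 1 to 135 with a median of 6. Summed Ccl4 was also higher in them, at 14085 against 2251 CPM under IL-15SA, where 1 barcode held 428 Ccl4 UMIs. Under the combination it was at 6384 against 2943 CPM. There 1 barcode held 165 Ccl4 UMIs and no other rich barcode more than 22, so that sum rests largely on 1 barcode. Ccl5 was at a like level under IL-15SA, 3406 against 3295 CPM, and lower in the rich barcodes under the combination, 4552 against 7625 CPM.

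Ccl3, Ccl4 and Ccl5 were found in the same barcodes more often than the product of their shares. After thinning, Ccl3 and Ccl4 occurred together in 13.1% of barcodes of the IL-15SA library, 1.33 times the product (1.25 to 1.4), and in 18.6% of the combination library, 1.25 times (1.2 to 1.3). For Ccl3 and Ccl5 the factors were 1.26 (1.19 to 1.33) and 1.09 (1.05 to 1.13). For Ccl4 and Ccl5 they were 1.12 (1.09 to 1.14) and 1.05 (1.03 to 1.06). All 3 pairs were thus above 1 in both libraries. The amounts also went together: across barcodes of a library, the Pearson correlation of log(UMIs + 1) was 0.47 and 0.45 for Ccl4 with Ccl5, 0.37 and 0.38 for Ccl3 with Ccl4, and 0.31 and 0.32 for Ccl3 with Ccl5, over 7792 and 11050 barcodes that share a library and the depth of 1000 UMIs.

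**Figure D3:**
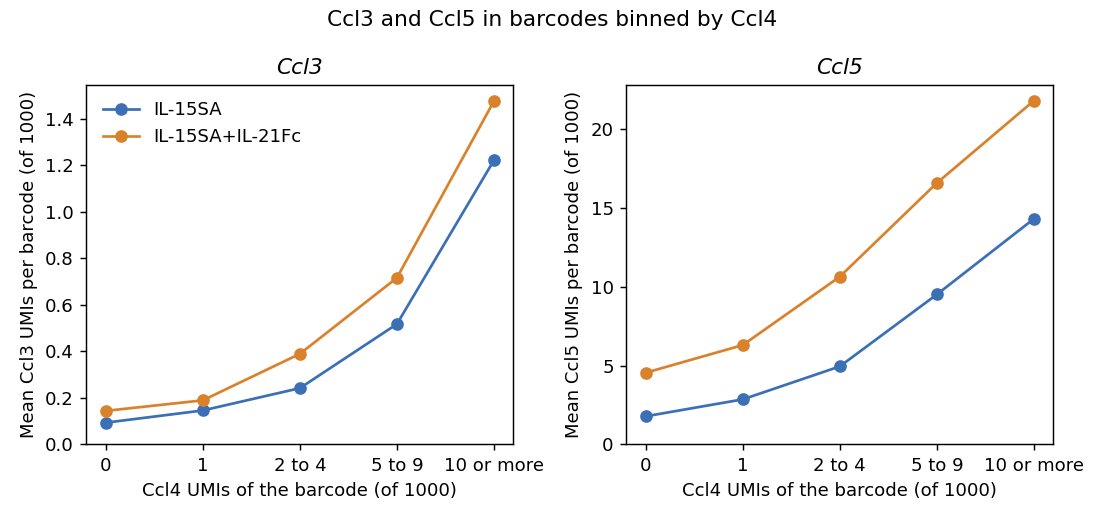
Mean UMIs of Ccl3 (left) and Ccl5 (right) per Ncr1-positive barcode, at 1000 UMIs per barcode, in barcodes binned by their Ccl4 UMIs, for the IL-15SA library (blue) and the combination library (orange). Both genes are higher in each bin of more Ccl4, and the combination library is above the IL-15SA library in every bin.

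Binned by Ccl4, the other members formed a gradient. Barcodes without a Ccl4 UMI had a mean of 0.0928 Ccl3 UMIs in the IL-15SA library and 0.144 in the combination library, and those with 10 or more had 1.22 and 1.48. Mean Ccl5 went from 1.77 to 14.3 UMIs and from 4.54 to 21.8 over the same bins. In the plot of Ccl3 and Ccl5 by Ccl4 bin, both genes were higher in every next bin. At the same Ccl4 count the combination library had more Ccl5, for example 4.94 UMIs at 2 to 4 Ccl4 UMIs in the IL-15SA library and 10.6 in the combination library. High barcodes were next defined for each gene as those at or above the 75th percentile of its thinned UMIs, and with at least 1. High barcodes of Ccl4 and Ccl5 overlapped 2.06 times more than the product in both libraries, which was 55.8% of the Ccl4-high and 56.0% of the Ccl5-high barcodes of the IL-15SA library and 52.5% and 53.4% of those of the combination library.

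For Ccl1 presence and amount gave different pictures. It shared 21 and 28 thinned barcodes with Ccl4, 1.17 times (0.724 to 1.79) and 1.05 times (0.696 to 1.51) the product, and 5 and 7 barcodes with Ccl3, 1.08 times (0.351 to 2.52) and 0.787 times (0.316 to 1.62). These intervals include 1, so a surplus or a lack of shared barcodes was not detectable at this depth. In amount, mean Ccl4 was 8.17 UMIs in the 29 barcodes with Ccl1 against 2.68 in those without in the IL-15SA library, and 5.45 in 40 barcodes against 3.22 in the combination library. Of the Ccl1 barcodes 58.6% and 32.5% were Ccl4-high, 2.16 and 1.25 times the product. Mean Ccl1 was 0.0078 and 0.0066 UMIs in barcodes without Ccl4 and 0.033 and 0.025 in those with 10 or more. These Ccl1 means rest on few barcodes, so no rise of Ccl1 with Ccl4 is read from them. A single thinned barcode held 10 Ccl1 UMIs in the IL-15SA library, 15.9% of all, and 1 held 20 in the combination library, 22.2% of all. Ccl5 differed less, at 3.97 against 4.36 UMIs and 8.8 against 9.40 UMIs in barcodes with and without Ccl1. Ccl1 and Ccl9 were found together in no thinned barcode of either library, which allows up to 0.0385% and 0.0271% of barcodes, while the product of their shares was 0.0024% and 0.0043%. Before thinning, 2 of the 5 genes was the most common number per barcode, in 55.9% and 52.9% of barcodes, and all 5 occurred together in 2 and 3 barcodes.

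Genes that accompany each chemokine were ranked by the lower of their ratios in the 2 libraries, high barcodes over the rest. For Ccl4, 0.319% of 4703 genes were at least 1.5-fold higher in both libraries. The first was Ifng, the interferon of NK and T cells, at 503 CPM in Ccl4-high barcodes against 218 CPM in the rest under IL-15SA (2.30-fold, 2.12 to 2.50) and at 500 against 232 CPM in the combination library (2.16-fold, 2.01 to 2.31). Next came Gadd45b, a stress-induced activator of p38 signalling in lymphocytes (2.01 and 2.29-fold), Tagap, a GTPase regulator of T cells (1.85 and 1.98-fold), and Atf3, an immediate transcription factor (2.19 and 1.75-fold). The activation marker Cd69 (1.64 and 1.64-fold), the NF-kB inhibitor Nfkbia (1.58 and 1.62-fold), Nfkbiz (1.63 and 1.79-fold), and Ccrl2 and Mxd1 (1.67-fold to 1.76-fold) were also among the 10. The lists of their kind did not move as a whole. Of 15 immediate early genes 2, and of 16 measured genes of NF-kB and related signalling 3, were at least 1.5-fold higher in both libraries, against 0.689% of all genes at the minimum used for lists (20 UMIs in each library). Some members lay below 1, such as Egr1 at 0.817 and 0.778-fold and Nfkb1 at 0.689 and 0.743-fold.

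Ccl3 was accompanied by a similar set. Of 4686 genes 0.107%, 5 in all, were at least 1.5-fold higher in both libraries: Tagap (1.66 and 1.84-fold), Tnf, a cytokine induced with chemokines (1.97 and 1.66-fold), Ifng (1.73 and 1.66-fold), Gadd45b (1.53 and 1.90-fold) and Maf, a transcription factor (1.51 and 1.53-fold). Nr4a1, which reports antigen receptor signalling in lymphocytes, followed at 1.48 and 1.68-fold. Nfkbiz and Nfkbia were at 1.46-fold to 1.58-fold. Ifng and Gadd45b were among the 10 first genes of Ccl3, Ccl4 and Ccl5 alike, and Nfkbia among those of Ccl1, Ccl3 and Ccl4. These lists come from overlapping barcodes and are not independent of each other.

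**Figure D4:**
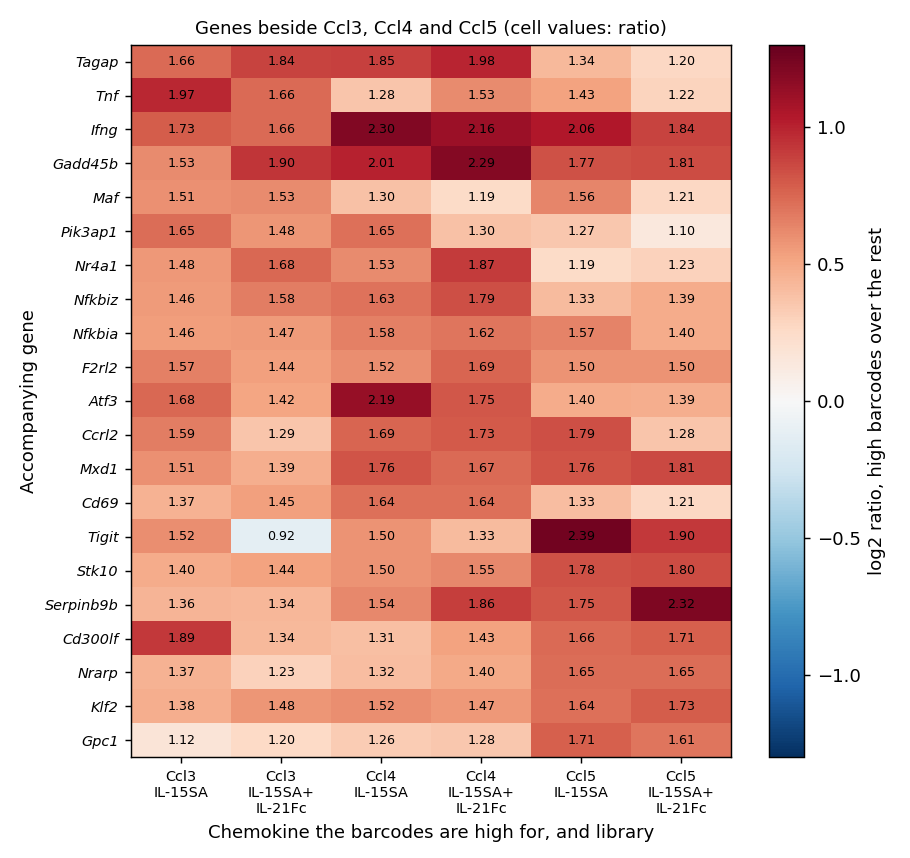
Ratio of CPM in barcodes high for Ccl3, Ccl4 or Ccl5 over the rest of the same library, for 21 genes from their lists of 10. Colour is the log2 ratio and the number is the ratio. Ifng is at 1.66 or more in all 6 columns. Tigit runs from 0.92 beside Ccl3 to 2.39 beside Ccl5, and it met the 2% minimum only through Ccl5-high barcodes.

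Ccl5 shared Ifng, Gadd45b and Mxd1 of its 10 first genes with Ccl3 or Ccl4. Of 4703 genes, 0.361% were at least 1.5-fold higher in Ccl5-high barcodes in both libraries. Tigit, an inhibitory receptor of NK and T cells, was at 37.9 against 15.8 CPM (2.39-fold, 1.75 to 3.27) and at 33.0 against 17.4 CPM (1.90-fold, 1.45 to 2.48). It had a UMI in 3.55% and 3.19% of Ccl5-high barcodes and in 1.55% and 1.69% of the rest. Tigit thus met the 2% minimum for accompanying genes only through the Ccl5-high barcodes, and its values are a description. Ifng (2.06 and 1.84-fold), Gadd45b (1.77 and 1.81-fold) and Serpinb9b, of a family of granzyme inhibitors (1.75 and 2.32-fold), were among the 10, as was Klf2, a factor of lymphocyte circulation (1.64 and 1.73-fold). Of the 9 genes of NK maturation with a UMI, 5 were at least 1.5-fold higher in Ccl5-high barcodes in both libraries, against 3 for Ccl3-high and 2 for Ccl4-high barcodes. Over all genes at the minimum used for lists the shares were 0.699%, 0.593% and 0.689%. Cma1, a mast cell protease that mature NK cells also transcribe, was at 42.6 against 8.98 CPM (4.75-fold) and 124 against 15.4 CPM (8.02-fold). S1pr5, the receptor by which mature NK cells leave tissues, was at 13.3 against 4.75 CPM (2.79-fold) and 38.6 against 5.83 CPM (6.62-fold). Both were also higher beside the other two genes: Cma1 was 3.58 and 3.8-fold higher in Ccl3-high and 2.80 and 2.56-fold higher in Ccl4-high barcodes, and S1pr5 was 2.78 and 2.16-fold and 2.23 and 2.12-fold higher. Klrg1, a marker of late maturation, was not among the 5, at 0.878 and 1.14-fold. High barcodes of Ccl3, Ccl4 and Ccl5 were shallower than the rest, with medians of 2460 against 3541 UMIs for Ccl5 in the IL-15SA library and 2012 against 2625 in the combination library, and the part of depth in these ratios was not tested beyond thinning.

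For Ccl1 only 144 genes met the UMI minimum in its 29 and 40 high barcodes. In so few barcodes a gene at a low level meets it only by being high there, so no share of genes is given, and the named ones are a description. Xcl1 was at 5103 against 950 CPM (5.37-fold, 4.53 to 6.32) and 4100 against 1406 CPM (2.92-fold, 2.48 to 3.40). One barcode held 25% and 23.2% of those Xcl1 UMIs. Nfkbia was at 2069 against 927 CPM (2.23-fold, 1.70 to 2.87) and 1850 against 1151 CPM (1.61-fold, 1.26 to 2.02). The third, Nr4a1, was 2.40-fold (1.58 to 3.50) and 1.45-fold (0.977 to 2.07) higher, so its interval reached 1 in the combination library.

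For Ccl9, with 51 and 132 positive barcodes, 313 genes met the UMI minimum, and the same limit holds: the 3 genes named next passed it through being high there, and most first genes of the other chemokines did not meet it. Ccl2, the monocyte attractant, led at 1294 against 161 CPM (8.03-fold, 6.17 to 10.3) and 545 against 164 CPM (3.32-fold, 2.59 to 4.21), followed by Tm4sf1, a surface protein of tumour and endothelial cells (4.90 and 2.84-fold), and Ly6e (4.13 and 2.6-fold). The 9 tumour or stroma markers summed to 216 CPM in Ccl9-positive barcodes against 77.8 CPM in the rest under IL-15SA, and to 424 against 135 CPM under the combination. In Ccl4-high barcodes the same sum was 52.9 against 88.3 and 69.0 against 162 CPM. Barcodes with Ccl9 thus held more tumour or stroma transcripts than the rest, and Ccl4-high barcodes held fewer.

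Barcodes were also grouped into 7 clusters made without any chemokine gene, which are given by number. Cluster 3 was led by Cma1, S1pr5 and Serpinb9b, cluster 1 by the granzymes Gzmg, Gzmf and Gzmd, cluster 2 by cell cycle genes such as Nusap1 and Rrm2, cluster 4 by Krt83, Il7r and Cxcr6, cluster 5 by the interferon-induced Slfn5, Ifit2 and Ifit3, and cluster 6 by Saa3, Dcn and Col1a2, which are tumour or stroma genes. Cluster 7, with 55 and 49 barcodes, was led by Rnf152 and Tmem178b. Since the cells are those that were clustered, differences between clusters carry no test.

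Ccl5 was highest in cluster 3, at 8009 CPM (7922 to 8097) under IL-15SA and 18603 CPM (18484 to 18722) under the combination. Cluster 5 followed at 5644 and 9748 CPM. The granzyme cluster 1 had 2101 and 4239 CPM and cluster 6 had 1366 and 2097 CPM, so the highest and lowest of the 6 larger clusters were far apart in both libraries. Within each of the 6 clusters with at least 100 barcodes per library, Ccl5 was past 1.5-fold in favour of the combination, with log2 ratios from 0.62 in cluster 6 to 1.37 in cluster 2. Median depth was 1881 UMIs in cluster 3 and 4259 in cluster 2, and its part in the order of clusters was not tested.

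Ccl4 stood highest in clusters 5 and 3. It was at 4274 CPM (4143 to 4407) in cluster 5 and 4158 CPM (4095 to 4221) in cluster 3 of the IL-15SA library, neighbours whose intervals overlap. In the combination library cluster 3 led with 4946 CPM (4884 to 5007) over cluster 5 with 4014 CPM (3918 to 4112). Between libraries, the Ccl4 log2 ratio was above 0 in 3 of 6 clusters and past 1.5-fold in none, from -0.09 in cluster 5 to 0.57 in cluster 2. Ccl4 in cluster 4 was 2618 and 2584 CPM, with overlapping intervals.

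Ccl3 was also highest in cluster 3, at 408 CPM (389 to 429) and 624 CPM (603 to 647), and lowest in clusters 6 and 1. It was at 87.6 CPM (70.5 to 108) and 103 CPM (91.0 to 117) in cluster 6 and at 99.3 CPM (93.0 to 106) and 162 CPM (153 to 172) in cluster 1. The log2 ratio between libraries was above 0 in all 6 larger clusters, from 0.21 in cluster 5 to 0.95 in cluster 2, and 3 of them passed 1.5-fold. The clusters that led for the 3 genes were thus largely the same, while only Ccl5 passed 1.5-fold in all 6.

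**Figure D5:**
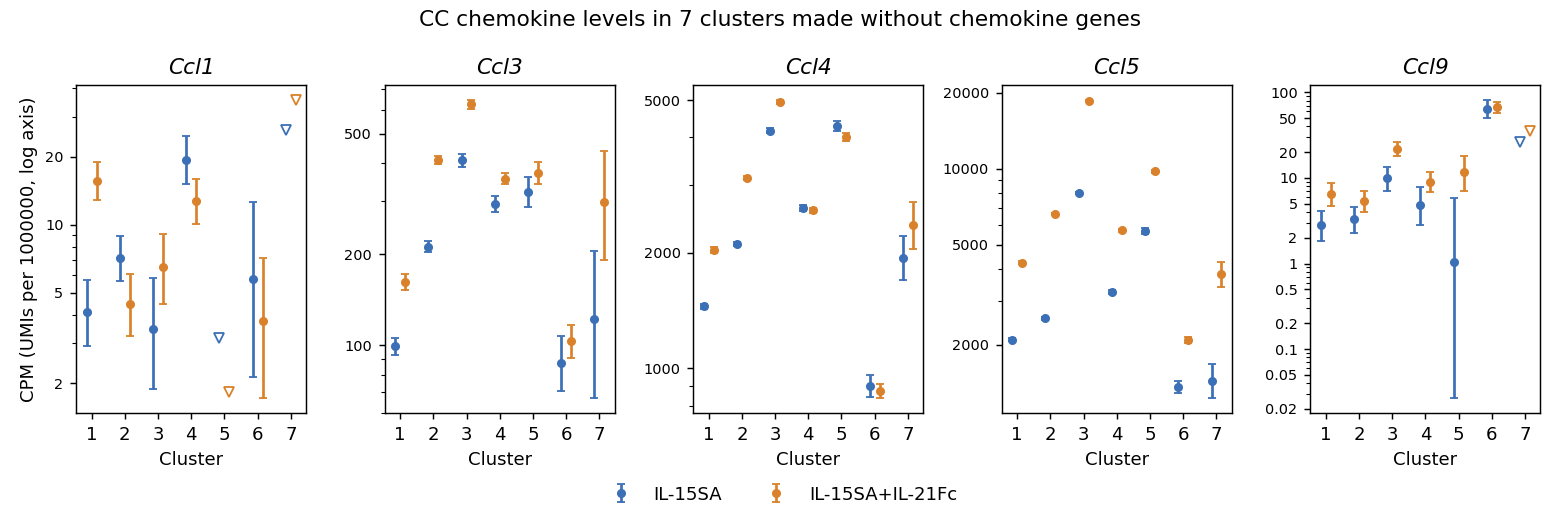
Level of each gene in CPM (log axis) in the 7 clusters, for the IL-15SA library (blue) and the combination library (orange). Bars are exact 95% Poisson intervals and open triangles are the level that 3 counts would give where no UMI was seen; Ccl5 and Ccl3 peak in cluster 3 and Ccl9 in cluster 6.

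Ccl1 was highest in cluster 4 of the IL-15SA library, at 19.4 CPM (15.1 to 24.6), and in cluster 1 of the combination library, at 15.6 CPM (12.8 to 18.8). A single barcode held 52.9% of the cluster 4 UMIs of the IL-15SA library and 75% of those of the combination library, and 26.6% of those of cluster 1 in the combination library. No Ccl1 UMI was seen in cluster 5 of either library, where 3 counts would have been 3.17 and 1.83 CPM. With so few barcodes behind each value, no order of clusters is read for Ccl1. Ccl9 was at 64.5 CPM (49.98 to 81.9) and 66.7 CPM (56.8 to 77.9) in cluster 6. The other larger clusters lay between 1.06 and 9.89 CPM under IL-15SA and between 5.31 and 21.7 CPM under the combination. Cluster 6 was thus above the others in both libraries. Between libraries, the Ccl9 log2 ratio was above 0 in all 6 larger clusters and past 1.5-fold in 4, from 0.05 in cluster 6 to 2.62 in cluster 5, where the IL-15SA library held 1 Ccl9 UMI, with a median of 0.87.

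Splitting barcodes by single markers gave smaller differences. Barcodes with a thinned Klrg1 UMI had 1.07 times (1.04 to 1.09) the Ccl5 of those without in the IL-15SA library and 1.42 times (1.41 to 1.44) in the combination library, but 0.688 times (0.630 to 0.751) and 1.00 times (0.943 to 1.06) the Ccl3. Barcodes with an Il7r or Cxcr6 UMI, genes of tissue-resident innate lymphocytes, had 1.81 times (1.53 to 2.13) and 1.03 times (0.897 to 1.17) the Ccl3 and 0.951 times (0.901 to 1.00) and 0.667 times (0.645 to 0.689) the Ccl5. Barcodes with a UMI of the proliferation genes Mki67 or Top2a had 0.744 times (0.724 to 0.765) and 0.834 times (0.821 to 0.848) the Ccl5. Ccl3 and Ccl5 thus differed from each other along these markers, and the Ccl3 difference by Klrg1 and by Il7r or Cxcr6 was seen in the IL-15SA library alone, which was not tested.

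Among receptors of CC chemokines, Ccr2, which binds other members of the family, was at 480 and 489 CPM (1.02, 0.996 to 1.04). Ccr1, Ccr3, Ccr4, Ccr8 and the decoy receptor Ackr2 were under 1 CPM in both libraries. Transcripts of Ccr1, a receptor of Ccl3, Ccl5 and Ccl9, and of Ccr8, the receptor of Ccl1, were thus near 0 in these cells under both treatments.

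Among 27 other chemokine genes, 5 were measured. Xcl1 stood at 825 and 1265 CPM (1.53-fold, 1.51 to 1.56), Cxcl10, an interferon-induced chemokine for T cells, at 25.3 and 38.2 CPM (1.51-fold), Ccl7 at 45.8 and 56.9 CPM (1.24-fold) and Cxcl1, which draws neutrophils, at 43.5 and 32.1 CPM (0.740-fold). With 1 CPM added, Xcl1 alone passed 1.5-fold. Over all 9389 genes at the 5 CPM used for lists, 52.5% had a log2 ratio above 0 and 47.5% below, 3.26% were at least 1.5-fold higher and 0.522% lower, and the median was 0.0099. Of 7 measured effector cytokines 5 had a log2 ratio above 0 and 1, Ltb, passed 1.5-fold (494 and 798 CPM). Of 16 measured genes of NF-kB and related signalling 14 lay above 0 and 0 passed 1.5-fold, with a median log2 ratio of 0.23 and Nfkb2 first at 47.8 and 67.5 CPM. Of 15 immediate early genes 13 lay above 0 and 3 passed 1.5-fold, namely Dusp1 (394 and 707 CPM), Fos (168 and 262 CPM) and Zfp36 (424 and 640 CPM).

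Transcription factors linked to Ccl5 differed less than Ccl5 itself. Of 10 such genes 7 had a log2 ratio above 0, none passed 1.5-fold either way, and the median was 0.25. Irf7 was at 55.9 and 73.8 CPM, Zeb2 at 15.4 and 20.5 CPM and Prdm1 at 44.4 and 35.7 CPM. Of 8 measured maturation genes 7 lay above 0 with a median of 0.40, and Cma1 (15.9 and 39.6 CPM) and S1pr5 (6.10 and 11.1 CPM) passed 1.5-fold. The 7 include Cd27, a gene of less mature NK cells (124 and 164 CPM). The 1 below 0 was Klrg1, the marker of late maturation (1338 and 1262 CPM), so no shift in maturity is read from this count. Of 15 interferon response genes 15 lay above 0 and 9 passed 1.5-fold, against the 52.5% and 3.26% of all genes, with Ifit3 at 7.59 and 21.5 CPM. Granule genes went the other way, 7 of 10 below 0 and 2 past 1.5-fold lower, Gzmc (995 and 587 CPM) and Gzmk (163 and 105 CPM). Of 10 cell cycle genes 9 lay below 0 and 0 passed 1.5-fold, and of 10 activation genes 1 was past 1.5-fold higher and 2 lower, Havcr2 (24.4 and 8.46 CPM) and Tnfrsf9 (551 and 333 CPM).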

How the data were processed

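Single-cell libraries were made with GEXSCOPE microwells from sorted tumour NK cells, per the labels' protocols. The files as deposited hold raw UMI counts per gene for barcodes already called as cells. The submitters' processing notes name cutadapt, featureCounts, Seurat 4, Scanpy and mm10 but no roles; for aligner, annotation and cell calling the sources used here give nothing. Groups follow the sample titles, which differ from the series title in the agents named.

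Kept barcodes had 200 genes or more and up to 20% of mitochondrial UMIs, which removed 0 and 5. Levels are summed counts per 1000000 (CPM); log2 ratios are the combination over IL-15SA with 1 CPM added, on genes at 20 CPM or more in 1 library. Ratios with an interval have nothing added. Intervals are exact (Poisson, conditional binomial, Clopper-Pearson) at 95%, and a count of 0 allows up to 3 counts. Thinning drew 1000 UMIs per barcode without replacement. Scrublet's automatic threshold marked 2 and 1 barcodes, too few to have worked, so doublets stayed in and leaving out the 5% highest scores was an alternative. Clustering used 2000 variable genes without 40 chemokine genes, 30 components, 15 neighbours and Leiden at resolution 0.5 (scanpy 1.11.5, leidenalg 0.10.2, Python 3.11.15), without integration. The scripts were tested on simulated data.

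Accompanying genes needed a UMI in at least 2% of thinned barcodes in both libraries and 20 UMIs in the high barcodes of each; the 10 with the highest lower ratio were taken, without mitochondrial, ribosomal and model genes. Of each gene list, the 4 measured genes (5 CPM) with the log2 ratios largest in size were named, and the receptors. Some genes these rules name are not reported here. The Ccl1-rich barcodes and the further maturation genes were chosen after their values were seen. The members and lists were chosen with earlier results of these data known. Alternatives were other barcode sets, depths, totals and filters.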

Additional observations from a re-analysis of the deposited data

How the results depend on the processing

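No paired analysis was possible because the groups hold 1 library apiece. The log2 ratio of each of the 5 genes kept its sign under all its alternatives (58 values in all), ranging over 0.0094 to 0.52 for Ccl1, 0.25 to 0.81 for Ccl3, 0.094 to 0.43 for Ccl4, 0.81 to 1.26 for Ccl5 and 0.73 to 1.45 for Ccl9; 25 lay outside the counting interval of the value reported, and the cause was not tested. With at least 2 Ncr1 UMIs per barcode Ccl3, Ccl4 and Ccl5 were at 0.80, 0.42 and 1.25, and over all barcodes at 0.68, 0.32 and 1.17. Matched on UMIs per barcode they were at 0.54, 0.20 and 0.81, and thinned to 1000 UMIs at 0.63, 0.26 and 1.11, with Ccl1 at 0.0094. Without barcodes holding a marker of any class other than NK cells or type 1 innate lymphoid cells, 495 and 902 barcodes were left, since a T cell marker was detected in 91.3% and 86.7% of them; Ccl3, Ccl4, Ccl5 and Ccl9 were then at 0.25, 0.094, 0.86 and 0.73, and Ccl1 had 0 and 6 UMIs and gave no value. Without the top 1% of barcodes Ccl5 was at 1.24 and Ccl9 at 1.45, and Ccl1 gave no value. Chosen after seeing the data, leaving out barcodes with tumour or stroma markers gave 0.81, 0.43 and 1.26 for Ccl3, Ccl4 and Ccl5, and leaving out cluster 6 gave 0.78, 0.42 and 1.26. Genes at least 1.5-fold higher and lower numbered 306 and 49 at a minimum of 5 CPM and 47 and 15 at 50 CPM, which follows from more and fewer genes tested, and 96 and 18 with matched barcodes. Shares of barcodes moved with depth by construction, for Ccl4 from 46.0% to 87.0% in the IL-15SA library between 500 UMIs and no thinning. Of 80 co-detection values 68 stayed within the counting interval, and Ccl3, Ccl4 and Ccl5 pairs stayed above 1 in all. Too few barcodes carried Ccl1 to order the clusters by it, and with 1 library per group no difference has a replicate error.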
